A study of Homo sapiens with 8 samples.

Results

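AMP-activated protein kinase (AMPK) was examined at the RNA level in Hct116 cells, an established human colorectal carcinoma line. The genes were chosen by symbol. They are the catalytic alpha subunits PRKAA1 and PRKAA2, the scaffolding beta subunits PRKAB1 and PRKAB2, the nucleotide-binding gamma subunits PRKAG1 and PRKAG2, and the upstream kinases STK11 and CAMKK2. All 8 symbols were found among the 23459 genes of the table, and all 8 passed the filter on low counts. Cells were given 30 μM lenalidomide, an immunomodulatory drug that binds the ubiquitin ligase subunit CRBN, or the same volume of DMSO, its solvent, for 16 h, with 4 replicates per treatment. All libraries came from 1 cell line, without any genetic change named in the labels, and total RNA was prepared from cultures that were split between RNA-seq and mass spectrometry. According to the paper, treatment began as the cells moved into medium whose amino acids carried another isotope label. Part of the 4 replicates were designed as label swaps. The sample labels do not say which libraries these are, and the part of the swap in the results was not tested. The design text calls the replicates biological and the methods of the study call them technical, so p-values measure the spread between these libraries only.

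AMPK is a heterotrimer of 1 alpha, 1 beta and 1 gamma subunit that senses falling cellular energy. AMP and ADP bind the gamma subunit and favour phosphorylation of the activation loop of the alpha subunit by STK11 (also called LKB1), whereas CAMKK2 phosphorylates the same loop in response to calcium. Active AMPK restrains lipid and protein synthesis and promotes catabolism and autophagy. CRBN, the receptor of lenalidomide, has been reported to bind AMPK, which is why the subunits are of interest in cells given the drug. These interactions are between proteins, and only RNA was measured here.

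Library totals lay between 28218471 and 37473413 counts, and the 4 totals with lenalidomide were all below the 4 with DMSO. Lenalidomide replicate 4 had the smallest total and, at 19568, the most genes with counts, against 16953 to 18476 in the other libraries. The epithelial markers EPCAM, KRT8, KRT18, KRT19 and CDH1 were present at 52.5 to 952 CPM (read counts scaled to a common library size, after TMM). The blood markers PTPRC and CD3E had at most 6 counts in any library. Their summed level was 0 to 0.0535 CPM with DMSO and 0.0912 to 0.277 CPM with lenalidomide, and its part in the results was not tested. Of fibroblast and endothelial markers COL1A1 was the highest, at 2.44 to 3.63 CPM, while COL3A1, DCN and PECAM1 were at 0 in at least 1 library.

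The catalytic subunit was supplied almost entirely by PRKAA1 at the RNA level. Levels of different genes were compared as CPM per kilobase of exonic width. PRKAA1 (Entrez gene 5562; chromosome 5 of GRCh37, 40759491 to 40798476, minus strand) had 25.3 ± 0.141 CPM per kilobase and PRKAA2 (Entrez gene 5563; chromosome 1, 57110987 to 57181008, plus strand) had 1.14 ± 0.0901 CPM per kilobase with DMSO (SD, n = 4 each). In DMSO replicates 1 to 4, PRKAA1 exceeded PRKAA2 by 20.9-fold, 21.4-fold, 24.9-fold and 21.8-fold per kilobase. PRKAA1 thus made up 95.7% ± 0.317 (SD, n = 4) of the summed alpha level. In these 4 libraries 80.4% of the 13925 genes tested had a lower level per kilobase than PRKAA1 and 21.1% a lower level than PRKAA2.

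The promoters of the alpha pair are shown because this pair had the widest gap in level. Both are the 250 bases before the RefSeq start site, located in GRCh37, with GC boxes in capitals (GGGCGG or CCGCCC, that is the motif on either strand, overlaps counted). PRKAA1 is at chr5:40798280-40798529 on the minus strand and PRKAA2 at chr1:57110737-57110986 on the plus strand. The GENCODE gene of PRKAA1 begins at 40798476 on its strand, so most of its window lies inside that gene. The PRKAA2 window ends just before its GENCODE start at 57110987. The windows thus differ in their place relative to the GENCODE genes.
PRKAA1: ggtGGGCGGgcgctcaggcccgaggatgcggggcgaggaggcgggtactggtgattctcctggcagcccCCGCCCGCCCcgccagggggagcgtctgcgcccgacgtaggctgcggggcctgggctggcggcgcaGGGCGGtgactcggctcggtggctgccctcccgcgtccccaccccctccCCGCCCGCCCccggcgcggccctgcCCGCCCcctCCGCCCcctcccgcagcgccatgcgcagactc
PRKAA2: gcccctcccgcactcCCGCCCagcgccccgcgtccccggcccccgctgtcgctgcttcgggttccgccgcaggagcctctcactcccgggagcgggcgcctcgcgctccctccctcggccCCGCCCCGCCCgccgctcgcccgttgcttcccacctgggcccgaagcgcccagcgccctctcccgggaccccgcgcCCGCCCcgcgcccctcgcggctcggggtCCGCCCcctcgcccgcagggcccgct
The PRKAA1 window held 8 GC boxes and was 80.8% G and C. The PRKAA2 window held 5 GC boxes and was 83.2% G and C. Among 35116 RefSeq promoter windows of this length the median G and C content was 58%, and 42.6% held a GC box. Both windows were thus rich in G and C, with a lower content in 97.4% of the promoter windows for PRKAA1 and in 99.0% for PRKAA2.

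The gamma pair was also uneven. PRKAG1 (Entrez gene 5571; chromosome 12, 49396057 to 49412590, minus strand) had 26.2 ± 0.878 CPM per kilobase and PRKAG2 (Entrez gene 51422; chromosome 7, 151253210 to 151574299, minus strand) had 3.24 ± 0.144 CPM per kilobase with DMSO (SD, n = 4 each). Their ratio was 8.42, 7.98, 8.02 and 7.92 in DMSO replicates 1 to 4, so that the 4 libraries lay close together. PRKAG1 made up 89.0% ± 0.269 (SD, n = 4) of the sum of both. The remaining gamma gene, PRKAG3, known from skeletal muscle, had 0 counts in 7 libraries and 1 count in the other, and was not tested. A protein-coding gene of the GENCODE annotation without a symbol shares 2061 exonic bases with PRKAG1 on the same strand, so reads could belong to either.

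The beta pair, in contrast, was balanced. PRKAB1 (Entrez gene 5564; chromosome 12, 120105669 to 120119429, plus strand) had 4.45 ± 0.107 CPM per kilobase and PRKAB2 (Entrez gene 5565; chromosome 1, 146626685 to 146644129, minus strand) had 4.63 ± 0.315 CPM per kilobase with DMSO (SD, n = 4 each). PRKAB1 was below PRKAB2 in 3 of the 4 DMSO libraries, and the ranges of both genes overlapped. The ratio of PRKAB1 to PRKAB2 was 0.959, 0.918, 1.08 and 0.896 in replicates 1 to 4.

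The balance of the beta pair rests on the correction for length. In counts not divided by width PRKAB1 reached 0.411 of PRKAB2, since the exonic width in the table is 2405 bases for PRKAB1 and 5621 bases for PRKAB2. The gaps of the other pairs were smaller in such counts. With DMSO, PRKAG1 was then 2.56-fold above PRKAG2 and PRKAA1 12.2-fold above PRKAA2. Exact sign-flip tests of the log2 ratio within DMSO libraries gave p = 0.13 for the alpha and the gamma pair and p = 0.375 for the beta pair (two-sided; 0.188, 0.188 and 0.375 after Benjamini-Hochberg adjustment over 3 pairs). The p of the alpha and gamma pairs is the smallest that this test can give with 4 libraries. In a bulk culture, fewer cells with a transcript and less of it per cell cannot be told apart.

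**Figure D1:**
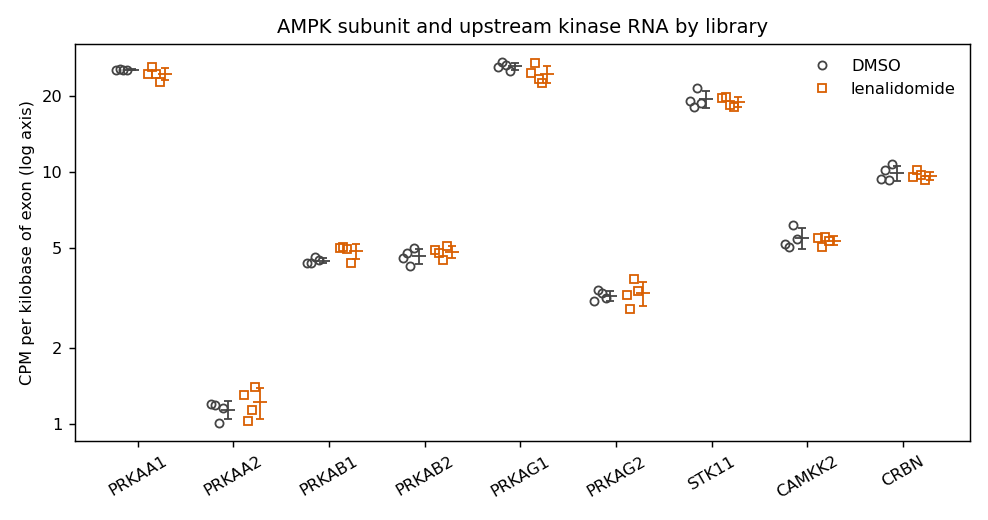
CPM per kilobase of exonic width (log axis) of the 8 AMPK genes and of CRBN in each library, with circles for DMSO and squares for lenalidomide; horizontal ticks and bars are the mean and SD of 4 libraries. PRKAA1 and PRKAG1 lie near 25 and 26 with DMSO, STK11 near 19, both beta genes between 4 and 5, and PRKAA2 near 1.

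Summed over paralogs, the alpha and gamma classes were about 3 times as high as the beta class. With DMSO the sums were 26.5 ± 0.200 CPM per kilobase for alpha, 9.08 ± 0.269 CPM per kilobase for beta and 29.4 ± 0.996 CPM per kilobase for gamma (SD, n = 4 each). The alpha to beta ratio was 2.92 ± 0.0802 and the gamma to beta ratio 3.24 ± 0.172 (SD, n = 4 each). Beta transcripts were thus the least abundant of the heterotrimer in this line, and each beta gene alone was below each of PRKAA1 and PRKAG1.

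Of the upstream kinases STK11 was the higher. STK11 (Entrez gene 6794; chromosome 19, 1177557 to 1228430, plus strand) had 19.3 ± 1.51 CPM per kilobase and CAMKK2 (Entrez gene 10645; chromosome 12, 121675478 to 121736111, minus strand) had 5.45 ± 0.513 CPM per kilobase with DMSO (SD, n = 4 each). STK11 lay above CAMKK2 in all 8 libraries. For comparison CRBN had 9.87 ± 0.705 CPM per kilobase (SD, n = 4).

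From highest to lowest with DMSO the order per kilobase was PRKAG1, PRKAA1, STK11, CRBN, CAMKK2, PRKAB2, PRKAB1, PRKAG2 and PRKAA2. Neighbours in this order did not overlap across the 4 DMSO libraries, with the exception of PRKAG1 with PRKAA1 and of PRKAB2 with PRKAB1. PRKAG1 was above PRKAA1 in 3 of 4 DMSO libraries and in 2 of 4 lenalidomide libraries. PRKAB2 was above PRKAB1 in 3 of 4 DMSO libraries and in 1 of 4 lenalidomide libraries. STK11 shares 145 exonic bases with CBARP on the opposite strand, and counting by the QuasR defaults does not separate strands, so reads of that stretch cannot be assigned. PRKAG2 shares 99 exonic bases with its antisense gene PRKAG2-AS1 in the same way. On the opposite strand PRKAG1 also shares 514 exonic bases with DDN-AS1, and PRKAB1 shares 103 with a noncoding gene without a symbol.

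Lenalidomide was then compared with DMSO, to ask whether the drug changed RNA of these genes. None of the 8 genes passed the test. The quasi-likelihood test of edgeR, adjusted over 13925 genes after Benjamini and Hochberg, called 0 of 8 at 0.05, where 0.0144% of all genes tested were called. At an unadjusted p under 0.05 the count was also 0 of 8, beside 4.18% of all genes tested (3.26% higher and 0.919% lower with lenalidomide), and DESeq2 and the likelihood ratio test likewise called 0 of 8. The adjusted p was 0.999 for each of the 8 genes. The treatments overlapped for all 8 genes, while 2.08% of the genes tested had groups that did not overlap (1.24% higher and 0.84% lower with lenalidomide). The median log2 fold change of the 8 genes was 0.0011, against 0.0025 for all genes tested.

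PRKAA1 was at 129.6, 131, 129.4 and 129.6 CPM in DMSO replicates 1 to 4 and at 124, 133, 125 and 116 CPM in lenalidomide replicates 1 to 4. The DMSO values lay within a narrow band, with 3 lenalidomide values below it and 1 above. The log2 fold change was -0.058 (standard error 0.052, 95% confidence interval -0.17 to 0.053). PRKAA2 was at 11.3, 11.1, 9.47 and 10.9 CPM with DMSO and at 12.2, 9.65, 10.7 and 13.1 CPM with lenalidomide. Here 2 lenalidomide values, of replicates 1 and 4, were above the highest DMSO value, and the log2 fold change was 0.092 (standard error 0.0998, interval -0.12 to 0.31). PRKAA2 had 320 to 423 counts per library and the widest interval of the 8 genes. PRKAB1 had fewer counts, 302 to 406 per library, and a narrower interval.

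PRKAB1, which anchors alpha and gamma and carries a glycogen-binding module, was at 10.5, 10.5, 11.04 and 10.7 CPM with DMSO and at 12.0, 12.2, 11.9 and 10.5 CPM with lenalidomide. Lenalidomide replicates 1 to 3 were above every DMSO library and replicate 4 was below them all. The log2 fold change was 0.12 (standard error 0.074, 95% confidence interval -0.036 to 0.28). Without lenalidomide replicate 4 it was 0.17, and the edgeR p was 0.0396 unadjusted and 0.9997 adjusted. PRKAB2 was at 25.6, 26.8, 23.8 and 27.96 CPM with DMSO and at 27.6, 26.8, 25.1 and 28.6 CPM with lenalidomide. These ranges largely coincided, with a log2 fold change of 0.053 (standard error 0.066, interval -0.089 to 0.20).

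PRKAG1 was at 66.8, 69.97, 68.2 and 64.6 CPM with DMSO and at 63.2, 69.1, 60.1 and 58.0 CPM with lenalidomide. All lenalidomide values other than that of replicate 2 were below the lowest DMSO value. With a log2 fold change of -0.11 (standard error 0.060, 95% confidence interval -0.23 to 0.023) it had the smallest unadjusted p of the 8 genes, 0.0994, which ranked 1151 among the 13925 genes of the quasi-likelihood test. Without lenalidomide replicate 2 the log2 fold change was -0.16, and the edgeR p was 0.0159 unadjusted and 0.511 adjusted. PRKAG2 was at 25.1, 27.7, 26.9 and 25.8 CPM with DMSO and at 26.4, 23.4, 30.5 and 27.4 CPM with lenalidomide. Lenalidomide replicates 2 and 3 were the lowest and the highest of all 8 libraries, and the log2 fold change was 0.031 (interval -0.13 to 0.19).

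STK11 was at 62.4, 58.9, 70.4 and 61.5 CPM with DMSO and at 63.9, 64.5, 60.2 and 59.1 CPM with lenalidomide. All lenalidomide values lay within the DMSO range, and the log2 fold change was -0.031 (95% confidence interval -0.16 to 0.10). CAMKK2 was at 34.0, 33.0, 40.6 and 35.6 CPM with DMSO and at 35.9, 33.2, 36.4 and 34.9 CPM with lenalidomide. Its lenalidomide values also lay within the DMSO range, with a log2 fold change of -0.029 (interval -0.18 to 0.12). Both upstream kinases were highest in DMSO replicate 3 and lowest in DMSO replicate 2. CRBN itself had a log2 fold change of -0.035 (interval -0.17 to 0.10).

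**Figure D2:**
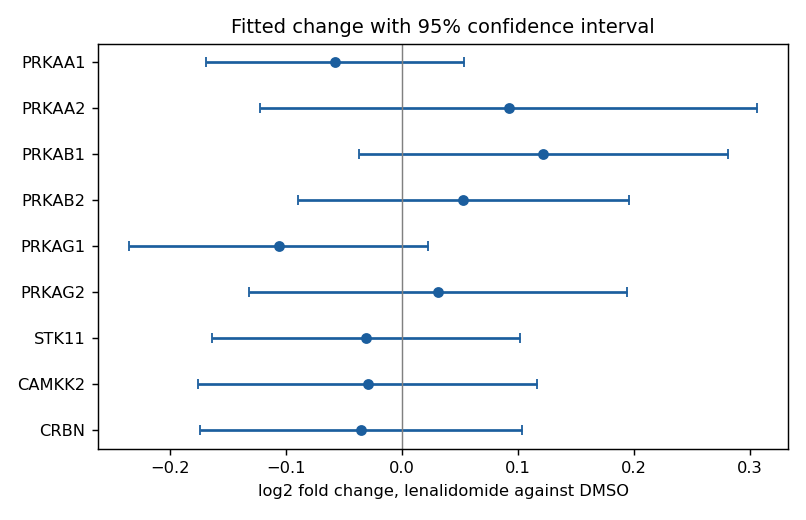
Log2 fold change of lenalidomide against DMSO for the 8 AMPK genes and CRBN, from the fit across 13925 genes; points are fitted values and bars 95% confidence intervals. Every interval includes 0, from the narrowest of PRKAA1 (-0.17 to 0.053) to the widest of PRKAA2 (-0.12 to 0.31).

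Expressed as a fold, the lower limits ran from 0.850 for PRKAG1 to 0.975 for PRKAB1 and the upper limits from 1.02 for PRKAG1 to 1.24 for PRKAA2. For PRKAA1, the dominant catalytic gene, the fold lay between 0.890 and 1.04. Lenalidomide replicate 4, the library with the smallest total, held the lowest value of PRKAA1, PRKAB1 and PRKAG1 and the highest of PRKAA2 and PRKAB2 among the 8 libraries. After thinning all libraries to the total of this one, the count of called genes was 0 of 8, as it already was without thinning. The log2 fold change was then -0.052 for PRKAA1, 0.085 for PRKAA2, 0.084 for PRKAB1, 0.037 for PRKAB2 and -0.10 for PRKAG1. Over the 8 libraries log2 CPM correlated with the log2 library total at 0.82 for PRKAA1, 0.67 for PRKAG1 and -0.61 for PRKAA2 (Pearson). The values were -0.47 for PRKAB2, -0.24 for PRKAB1, -0.21 for PRKAG2, 0.19 for STK11 and -0.00052 for CAMKK2. Whether depth has a part in the extremes of this library was not tested.

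The choice of paralog was compared between treatments through the ratio per kilobase within each library. Library size cancels in this ratio, and gene length cancels in its log2 difference between treatments. The PRKAA1 to PRKAA2 ratio was 18.5, 25.2, 21.3 and 16.2 in lenalidomide replicates 1 to 4, a wider spread than with DMSO. Its log2 value differed from DMSO by -0.15 ± 0.15 (lenalidomide minus DMSO, standard error), with an exact permutation p of 0.429. The PRKAG1 to PRKAG2 ratio was 7.56, 9.33, 6.22 and 6.69, a log2 difference of -0.13 ± 0.13 (exact permutation p = 0.314). The PRKAB1 to PRKAB2 ratio was 1.02, 1.06, 1.11 and 0.855, a log2 difference of 0.064 ± 0.10 (exact permutation p = 0.543). All tests were two-sided with n = 4 per treatment. The adjusted exact p over 3 pairs was 0.543 for each, and none of the differences passed. The smallest exact permutation p of 4 against 4 libraries is 0.0286, so 1 pair alone could not pass the adjustment over 3 pairs. The gamma ratio was below every DMSO value in 3 of 4 lenalidomide libraries, and its SD on the log2 scale was 0.040 with DMSO and 0.26 with lenalidomide. The difference in spread between treatments was not tested for any pair. Without lenalidomide replicate 2 the gamma difference was -0.25 (exact permutation p = 0.0571, adjusted p = 0.171) and without replicate 3 it was -0.054. PRKAA1 was 95.2% ± 0.859 of the alpha sum and PRKAG1 87.9% ± 1.82 of the sum of both gamma genes with lenalidomide (SD, n = 4 each).

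**Figure D3:**
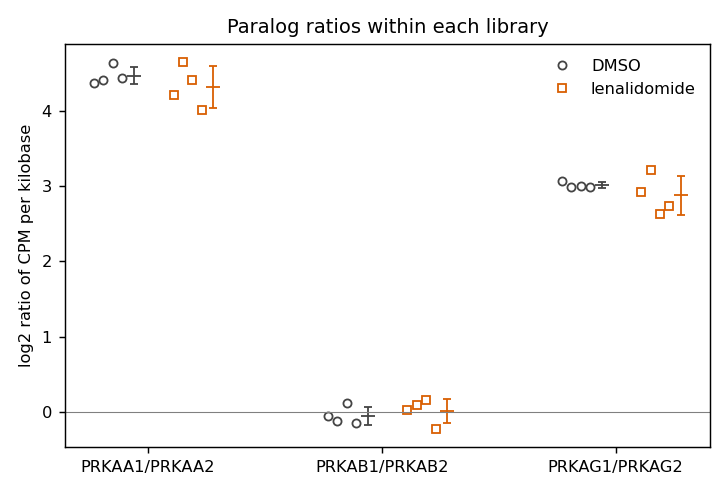
Log2 ratio of CPM per kilobase of the first to the second paralog in each library, with circles for DMSO and squares for lenalidomide; ticks and bars are the mean and SD of 4 libraries, and the line at 0 marks equal levels. The alpha ratio lies at 4.01 to 4.65, the gamma ratio at 2.64 to 3.22 and the beta ratio on both sides of 0, with both treatments overlapping in each pair.

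The balance between subunit classes was examined after the values of the single genes had been seen. With lenalidomide the alpha sum was 25.5 ± 1.18 CPM per kilobase (SD, n = 4), against 26.5 with DMSO (exact permutation p = 0.143, adjusted p = 0.171). The beta sum was 9.64 ± 0.255 CPM per kilobase (SD, n = 4), against 9.08 (exact permutation p = 0.0571, adjusted p = 0.114), and the gamma sum 27.6 ± 1.58 CPM per kilobase (SD, n = 4), against 29.4 (exact permutation p = 0.114, adjusted p = 0.171). The alpha and gamma means were thus lower and the beta mean higher with lenalidomide, and none of the sums passed the test. The alpha to beta ratio was 2.97, 2.93, 2.97 and 2.80 in DMSO replicates 1 to 4 and 2.58, 2.75, 2.72 and 2.55 in lenalidomide replicates 1 to 4. It was lower in all 4 lenalidomide libraries than in any DMSO library. The log2 difference was -0.14, with an exact permutation p of 0.0286 and, over the 6 class sums and ratios tested, an adjusted p of 0.114 (two-sided, n = 4 per treatment). The exact permutation p of 0.0286 is the smallest that 4 against 4 libraries allow, and 1 of the 6 tests alone could not pass with it. The difference did not pass the adjustment, and in counts not divided by width the exact permutation p was 0.0857. The gamma to beta ratio was 2.86 ± 0.120 with lenalidomide against 3.24 ± 0.172 with DMSO (SD, n = 4 each; exact permutation p = 0.0571, adjusted p = 0.114), and 1 lenalidomide library lay above the lowest DMSO library. The alpha to gamma ratio was 0.926 ± 0.0142 with lenalidomide and 0.901 ± 0.0285 with DMSO (SD, n = 4 each; exact permutation p = 0.200). Library totals were also lower in all 4 lenalidomide libraries, and depth and treatment cannot be told apart for these ratios.

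**Figure D4:**
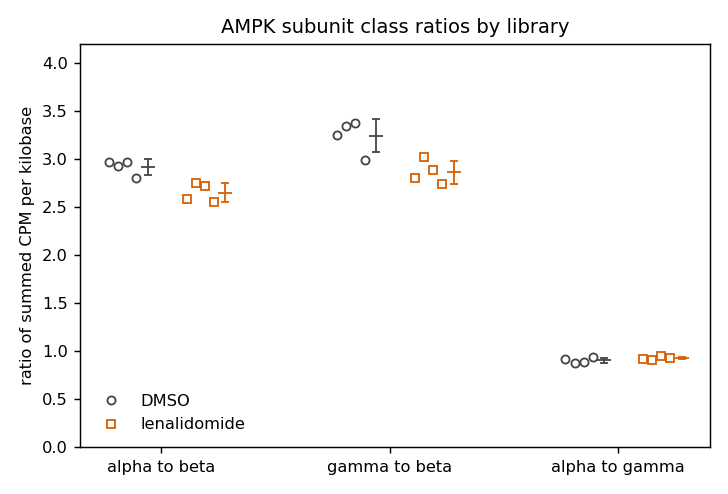
Ratios of summed CPM per kilobase between the alpha (PRKAA1, PRKAA2), beta (PRKAB1, PRKAB2) and gamma (PRKAG1, PRKAG2) classes in each library, with circles for DMSO and squares for lenalidomide; ticks and bars are the mean and SD of 4 libraries. The alpha to beta ratio lies at 2.80 to 2.97 with DMSO and at 2.55 to 2.75 with lenalidomide.

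Genes whose pattern over the 8 libraries was most like that of PRKAA1 were PHTF2, ABHD10 and ZNF207, with a Pearson correlation of log2 CPM of 0.982, 0.980 and 0.976. For STK11, CENPB and NOC2L were among the 3 most alike, at 0.983 and 0.977. These genes were taken from the 3 highest of 13925 in each case and are given as a description of 8 libraries that share depth and composition. Each of these 5 genes had an adjusted edgeR p of 0.999 for lenalidomide against DMSO.

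The wider pathway was read from 3 lists. The first held 21 regulators and partners of AMPK and STK11, of which 19 were tested. Among these were STRADA, STRADB and CAB39, which form the active complex with STK11, the calmodulins that activate CAMKK2, and the sestrins and the folliculin complex. Of the 19 genes, 0 passed an adjusted or an unadjusted p of 0.05, with log2 fold changes from -0.15 to 0.12 and a median of 0.013. The genes with the highest level per kilobase were the calmodulin genes CALM2 and CALM3, with log2 fold changes of -0.087 and 0.013, and PPP2CA, a catalytic subunit of the phosphatase PP2A that can dephosphorylate AMPK, at -0.0027. The phosphatase gene PPM1E, at 2 to 18 counts, was not tested.

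The second list held 13 kinases related to AMPK, nearly all of which are known to be activated by STK11, and all 13 were tested. Of these, 0 passed an adjusted or an unadjusted p of 0.05, with log2 fold changes from -0.10 to 0.10 and a median of -0.018. The highest levels per kilobase were those of MELK, a mitotic kinase of the family, and of the microtubule affinity-regulating kinases MARK3 and MARK2, with log2 fold changes of -0.027, -0.035 and 0.017. PRKAA1 at 25.3 CPM per kilobase thus lay close to MARK3 at 29.7 CPM per kilobase, and NUAK2 at 0.737 CPM per kilobase was the lowest of the 13.

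The third list held 29 substrates of AMPK, of which 27 were tested. None passed the adjusted p, and 1 gene was at an unadjusted p under 0.05. This was ACACA, acetyl-CoA carboxylase, the rate-limiting enzyme of fatty acid synthesis that AMPK inhibits by phosphorylation. ACACA was at 263, 249, 292 and 289 CPM with DMSO and at 306, 267, 333 and 381 CPM with lenalidomide. The treatments overlapped through lenalidomide replicate 2, and replicate 4 was the highest. The log2 fold change was 0.23 (95% confidence interval 0.037 to 0.43), with an edgeR p of 0.0235 unadjusted and 0.999 adjusted. BECN1, an autophagy factor, was also among the 3 genes with the highest levels per kilobase, with a log2 fold change of -0.055. Log2 fold changes of the list ran from -0.23 to 0.23, with a median of 0.024. TXNIP, an inhibitor of glucose uptake, had at most 2 counts in any library, and PPARGC1A, a coactivator of mitochondrial genes, at most 15, and neither was tested.

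Over the 3 lists 0 of 59 genes tested passed an adjusted p of 0.05 and 1 of 59 an unadjusted p of 0.05, beside 4.18% of all genes tested. Without DMSO replicate 1, DMSO replicate 2 or lenalidomide replicate 4 the latter count was 0, and without lenalidomide replicate 2 it was 4. The 4.18% belongs to the main fit. The share of all genes in the fits without 1 library was not taken, so these counts cannot be set against it. Groups did not overlap for 2 genes, SESN2, a sestrin, and MARK4, both named after their values were seen. SESN2 was at 15.6 to 17.33 CPM with DMSO and at 17.39 to 18.2 CPM with lenalidomide. MARK4 was at 12.4 to 12.86 CPM with DMSO and at 12.92 to 14.04 CPM with lenalidomide. Both were higher with lenalidomide by a log2 fold change of 0.12 and 0.10, with an adjusted edgeR p of 0.999, and 1.24% of all genes tested were higher without overlap.

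**Figure D5:**
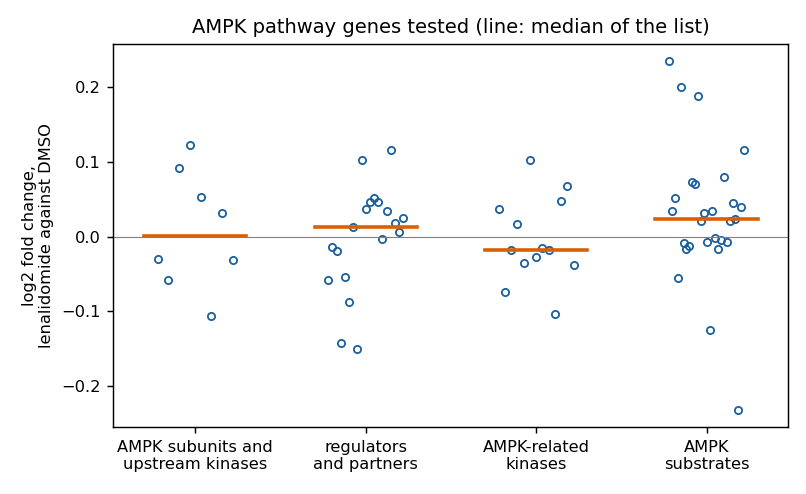
Log2 fold change of lenalidomide against DMSO for each gene tested of the 8 AMPK genes and of the 3 pathway lists; each circle is a gene and each line the median of its list. The medians lie between -0.018 and 0.024. ACACA is the highest circle at 0.23, and the lowest circle, of the same list, is at -0.23.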

How the data were processed

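RNA-seq libraries from total RNA (ScriptSeq v2) of 8 cultures were used. With QuasR at default settings, which count reads of either strand, the authors mapped the reads to hg19; the deposited values are unnormalized counts per gene of the UCSC known genes, with the exonic width beside them. Tool versions other than bcl2fastq 2.17 (processing notes) are not given in the sources used here.

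The test used edgeR 4.0.16 in R 4.3.3 (filterByExpr, minimum count 10, minimum total 15, 13925 genes kept; TMM; glmQLFit and glmQLFTest; Benjamini-Hochberg adjustment, threshold 0.05). Standard errors and 95% intervals were derived from each coefficient and F value. DESeq2 1.42.0 was an alternative. Ratios per library were tested by exact permutation with scipy 1.17.1. Each test was tested on simulated data or on values with known answers. Totals of 28218471 to 37473413 counts set the counting precision, and PCR duplicates cannot be told apart. The replicate numbers are not stated to pair the libraries, so the main fit did not pair them and a replicate block was run as an alternative. Deviations of same-numbered libraries from their treatment means correlated at 0.025, -0.028, 0.032 and 0.26 over genes for replicates 1 to 4.

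The genes and lists were chosen with earlier results of these data known. Named from the lists were genes with an unadjusted p under 0.05 and the 3 with the highest mean level per kilobase; other names were chosen after their values were seen. Some genes that these rules or the marker lists name are not reported here. Gene positions come from GENCODE on GRCh37 and promoter sequences from RefSeq, found in GRCh37 by exact match.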

Additional observations from a re-analysis of the deposited data

Results flagged for a closer look

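Of 28 groups of 4 values examined (the 8 genes, 3 paralog ratios and 3 class sums in each treatment), 2 held a value far from the other values of its group, where chance gives about 1.4. Far was judged by Dixon's test, which sets the gap to the nearest value against the range of the group. A small gap can thus be flagged where the other values lie close together. In DMSO replicate 2 the level of PRKAA1 was 131.0 CPM, and the remaining DMSO libraries lay at 129.4 to 129.6 CPM. The SD of all 4 was 0.724 CPM. In lenalidomide replicate 4 the level of PRKAB1 was 10.47 CPM, and the remaining lenalidomide libraries lay at 11.89 to 12.15 CPM.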

How the results depend on the processing

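The count of called genes was 0 of 8 AMPK genes and 0 of 59 pathway genes under each alternative run: RLE scaling, DESeq2, the likelihood ratio test, both other filters, an adjusted p under 0.1, the replicate block, thinning to the smallest total (chosen after the data were seen) and leaving out each library in turn. Of 120 log2 fold changes of single genes, 117 had the direction reported above and 3 the opposite one, and none was called. Leaving out each library in turn gave -0.036 (without lenalidomide replicate 3) to 0.094 for PRKAG2, and -0.064 to 0.020 for STK11 and -0.066 to 0.032 for CAMKK2, both positive only without DMSO replicate 3. The ranges were -0.091 to -0.026 for PRKAA1, 0.020 to 0.17 for PRKAA2 and -0.16 to -0.071 for PRKAG1 (extremes without lenalidomide replicates 2 and 4), 0.10 to 0.17 for PRKAB1, and 0.0099 to 0.090 for PRKAB2 (extremes without DMSO replicates 3 and 4). With the replicate block the smallest adjusted p of the 8 genes was 0.982 by edgeR's quasi-likelihood test, and the block changed no call. The block raised the genes called among all genes from 2 to 6. DESeq2 called 9 of all genes and the likelihood ratio test 12. The fit on all genes with at least 1 count called 4 of 21269.

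The log2 paralog ratio with DMSO was 4.47 for PRKAA1 to PRKAA2, -0.056 for PRKAB1 to PRKAB2 and 3.01 for PRKAG1 to PRKAG2. In counts not divided by width, these became 3.61, -1.28 and 1.36, since the widths differ. In the lenalidomide libraries they were 4.32, 0.0073 and 2.88. Leaving out each DMSO library moved them between 4.42 and 4.502, between -0.11 and -0.022, and between 2.995 and 3.02. The log2 difference in paralog ratio between treatments kept its sign in every alternative run, but its size moved when single libraries were left out. It ranged from -0.26 to -0.045 for the alpha pair (without lenalidomide replicates 2 and 4), from 0.016 to 0.14 for the beta pair (without lenalidomide replicates 3 and 4) and from -0.25 to -0.054 for the gamma pair (without lenalidomide replicates 2 and 3). The alpha to beta class ratio kept its direction when each library was left out, from -0.16 to -0.12 in log2, where 0.0571 is the smallest exact permutation p that 4 against 3 libraries allow. With the replicate block its exact sign-flip p was 0.13, the smallest for 4 pairs.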
